A study of Mus musculus with 6 samples.

Results

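The 6 genes that encode platelet-derived growth factor (PDGF) ligands and receptors, Pdgfa, Pdgfb, Pdgfc, Pdgfd, Pdgfra and Pdgfrb, were examined among 21887 protein-coding genes for H3K27ac, the acetylated form of a histone H3 lysine that sits at promoters and enhancers in use. The members were chosen by name, as the 4 ligand and 2 receptor genes of the family. The mark was profiled by CUT&RUN, where an antibody-tethered nuclease cuts out marked chromatin for sequencing. The cells were from pooled E16.5 fetal mouse lungs. Mesothelial cells, the outer covering of the lung, were gated as PDPN+EPCAM- and epithelial cells as PDPN+EPCAM+, each within live (DAPI-) cells free of CD45, a leukocyte marker, and CD31, an endothelial marker. Both cell types carried floxed Myrf alleles (timed Myrf Fl/Fl matings) with no Cre named, and mesothelial cells are described as wildtype. There were 2 mesothelium libraries, replicate 1 from 25000 and replicate 2 from 100000 cells, and 2 epithelium libraries, replicate 1 from 100000 and replicate 2 from 200000 cells, by their titles; the protocol gives a narrower range for the H3K27ac libraries. The 2 IgG libraries, of epithelial cells, were not analysed here, and the values therefore stand without an antibody background. Lungs were pooled before the sort and nothing in the labels ties replicates to separate pools, so the p-values reflect how far these libraries differ, a spread that could be technical.

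PDGF ligands are secreted dimers that bring receptor tyrosine kinases together at the cell surface. PDGFRA binds the A, B and C chains, and PDGFRB binds the B and D chains. PDGF-C and PDGF-D are secreted with a CUB domain that must be cut off before they can activate a receptor. In the developing lung, PDGF-A from the epithelium acts on PDGFRA-positive mesenchymal cells that give rise to alveolar myofibroblasts, and PDGF-B from endothelium draws PDGFRB-positive pericytes to vessels.

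The deposited lists held 39010 and 41532 peaks in the mesothelium libraries and 47873 and 46633 in the epithelium libraries. Most were weak, with a median −log10 q of 1.72 and 2.05 in mesothelium, against 1.56 and 1.56 in epithelium. The lowest listed value was between 1.00 and 1.03. Signal under the caller's minimum is not listed, so the absence of a peak does not show the absence of the mark, and read depth is unknown. Since cells were measured in bulk, fewer cells with the mark and less of the mark per cell cannot be told apart. Marker genes followed the labels in most cases. Of 13 tested lung epithelial markers, 8 had longer domains in epithelium and none in mesothelium, led by Cldn18, a claudin, and Nkx2-1, a lung regulator. Among mesothelial markers, 6 of 11 tested had longer domains in mesothelium, led by Gpm6a and Wt1. The difference had the opposite sign for 3 of the 11. Of these, Cdh3, listed as a mesothelial marker, passed the test, while Msln and Krt19 did not (limma adjusted p = 0.438 and 0.895). Msln measured 0.544 and 0.893 kb in mesothelium replicates 1 and 2, where the epithelium libraries held 1.185 and 4.285 kb. Calls across every tested domain amounted to 1.41% on the mesothelium side and 2.53% on the epithelium side. The summed length at the 15 epithelial markers was 36.2 and 10.8 kb in mesothelium replicates 1 and 2, and 189.9 and 206.5 kb in epithelium replicates 1 and 2.

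The ligand genes Pdgfa, Pdgfc and Pdgfd carried acetylated sequence in every library, while the ligand gene Pdgfb and both receptor genes carried fewer kilobases in each library. Each gene was given a domain, its gene body plus 50 kb on each side, cut midway to the next coding gene, and the kilobases under peaks were summed in it. Among all coding domains these 3 genes were not unusually bare. By mean percentage covered, Pdgfrb stood above 59.6% of coding domains in mesothelium and 60.2% in epithelium. Pdgfra stood above 43.7 and 35.6%, and Pdgfb above 40.1 and 43.4%. Pdgfa had more kilobases in both epithelium libraries, Pdgfd had more in both mesothelium libraries, and Pdgfc had the most in every library. Of the 6 members, 4 had a mean of at least 0.5 kb and were tested (Pdgfa, Pdgfc, Pdgfd and Pdgfrb), and Pdgfb and Pdgfra were not. None of the 4 passed at an adjusted p under 0.05 (limma over 10486 domains, Benjamini-Hochberg), where 3.94% of tested domains passed. At an unadjusted p under 0.05 there were 2 of 4, Pdgfa and Pdgfd, against 17.8% of tested domains. The libraries of the 2 cell types did not overlap for Pdgfa, longer in epithelium as at 25.5% of tested domains, or for Pdgfd, longer in mesothelium as at 22.4% of tested domains.

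**Figure D1:**
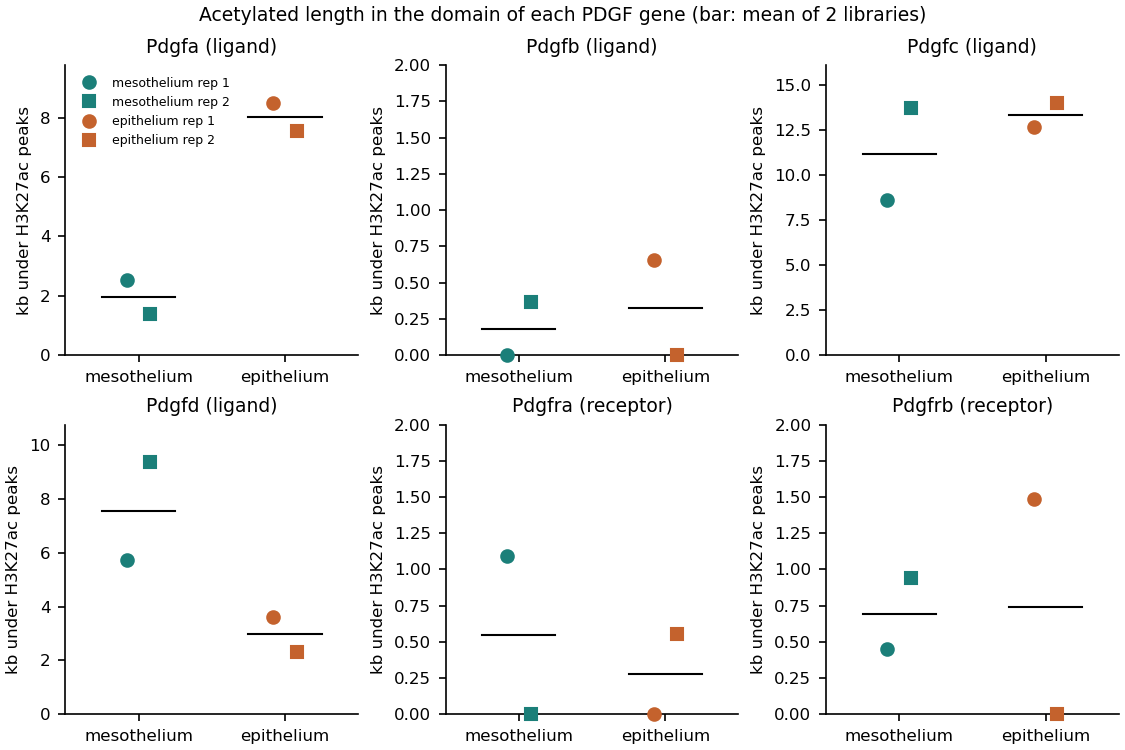
Kilobases under H3K27ac peaks in the domain of each PDGF gene, with 1 point per library, mesothelium on the left of each panel and epithelium on the right, and a bar at the mean of 2 libraries; the vertical scale differs between panels. Pdgfa and Pdgfd separate the cell types in opposite directions, and Pdgfb, Pdgfra and Pdgfrb stay below 1.5 kb in every library.

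Pdgfa, the gene of the A chain, which binds PDGFRA, had its start under a peak in all 4 libraries and further peaks along the gene in epithelium. The gene lies on the minus strand of chromosome 5 (138976014 to 139000792, mm10), with a domain of 83.0 kb. The RefSeq promoter table of GRCm38.p6, the assembly that mm10 names, gives it 2 starts, at 138994281 and 138994944. A start peak, within 1 kb of a start, was present in all 4 libraries for 11.0% of 17492 coding genes in that table, and among the 4 members in it for Pdgfa alone. The 300 bases around each start are shown because they are the member promoters under these peaks, read 5′ to 3′ on the minus strand from 250 bases before the start to 50 after it. In the window of the upstream start, chr5:138994895-138995194, capitals mark the 100 bases under a peak in 4 of 4 libraries. In the window of the downstream start, chr5:138994232-138994531, capitals mark the 61 bases under a peak in 3 libraries, mesothelium replicate 2 and both of epithelium.
Pdgfa upstream start: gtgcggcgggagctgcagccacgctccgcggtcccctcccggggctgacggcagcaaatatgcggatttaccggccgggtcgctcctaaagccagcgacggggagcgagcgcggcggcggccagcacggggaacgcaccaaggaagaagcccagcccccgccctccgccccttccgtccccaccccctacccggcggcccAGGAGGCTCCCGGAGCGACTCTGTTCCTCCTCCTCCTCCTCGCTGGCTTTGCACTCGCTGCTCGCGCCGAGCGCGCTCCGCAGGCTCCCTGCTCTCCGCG
Pdgfa downstream start: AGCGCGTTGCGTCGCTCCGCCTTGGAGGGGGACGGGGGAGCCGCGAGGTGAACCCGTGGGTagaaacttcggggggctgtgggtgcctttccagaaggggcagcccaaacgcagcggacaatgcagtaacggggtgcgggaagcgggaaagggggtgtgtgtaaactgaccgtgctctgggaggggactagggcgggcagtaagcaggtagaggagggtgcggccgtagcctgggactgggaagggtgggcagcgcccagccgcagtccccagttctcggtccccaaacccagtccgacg

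The upstream window was 73.3% G and C and the downstream window 67.0%, against a median of 56.3% over 21263 promoter windows. GGGCGG, the letters of an SP1 motif, searched on both strands, was found at 2 places in the upstream and 1 place in the downstream window, and in 46.2% of all windows. CTGGNAC, the letters of a MYRF motif, was found at 1 place in the downstream window and in 19.04% of all windows. The promoter window of Pdgfd, a gene with no start peak in any library, also held CTGGNAC at 1 place. Of the 8 motifs searched, those of TATA, TEAD, AP-1, FOXA, GATA and WT1 had no match in either Pdgfa window. These matches describe letters and no binding was measured. The peak at the start was strongest in mesothelium replicate 2, where its −log10 q was 6.39 and its fold enrichment over the peak caller's background, the authors' value, was 6.24. In the other 3 libraries its −log10 q was 1.40 in mesothelium replicate 1 and 1.2 and 1.58 in epithelium. It was widest in epithelium replicate 2 at 3475 bp, against 1647 and 536 bp in mesothelium and 1075 bp in epithelium replicate 1.

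Over its domain, Pdgfa carried 2.53 and 1.37 kb under peaks in mesothelium replicates 1 and 2, and 8.50 and 7.57 kb in epithelium replicates 1 and 2. Each epithelium library thus exceeded both mesothelium libraries. The means were 1.95 ± 0.822 kb for mesothelium, against 8.04 ± 0.660 kb for epithelium (SD, n = 2 each). The log2 difference, mesothelium minus epithelium on the median-centred log2(kb + 0.5) scale, was −1.78 (SE 0.57, 95% interval −2.97 to −0.59), which missed the threshold (limma adjusted p = 0.0891). It passed without mesothelium replicate 1 (−2.18, limma adjusted p = 0.0217) and with flanks that were not cut at the next gene (−2.01, limma adjusted p = 0.0367). With peaks limited to a −log10 q of 2 or more it was −0.32 (limma adjusted p = 0.909), and the adjusted p ran from 0.0217 to 0.909 over 19 alternatives. Mesothelium replicate 1 had the longer Pdgfa length of the 2 mesothelium libraries, so leaving it out enlarges the difference by construction. It also had more length at epithelial markers, 36.2 kb against 10.8 kb in replicate 2, and the part of these in the Pdgfa values was not tested.

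The extra length in epithelium lay downstream of the start in both libraries, and in replicate 2 also at the start. The start peak of epithelium replicate 2 spanned 3475 bp of the 7.57 kb. That of epithelium replicate 1 spanned 1075 bp, between the 1647 and 536 bp of mesothelium replicates 1 and 2. A region is a run of overlapping peaks of the 4 libraries, and Pdgfa held 9. Of these, 2 (22.2%, against 3.31% of all regions) were epithelium-only, with a peak in both epithelium libraries and neither mesothelium library. They lay in the gene body 5.47 and 15.1 kb downstream of the nearer start (chromosome 5, 138987845 to 138988816 and 138977160 to 138979207). Their peaks were weak. In epithelium replicates 1 and 2 the −log10 q was 1.30 and 1.57 in the first region, and 1.30 and 1.96 in the second. A region at 138969724 to 138971744, beyond the gene's 3′ end and 22.5 kb from the start, was under a peak in all 4 libraries, as was the start itself. Peaks covered 381 and 834 bp of that region in mesothelium, against 483 and 2021 bp in epithelium. No mesothelium-only region was found at Pdgfa.

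**Figure D2:**
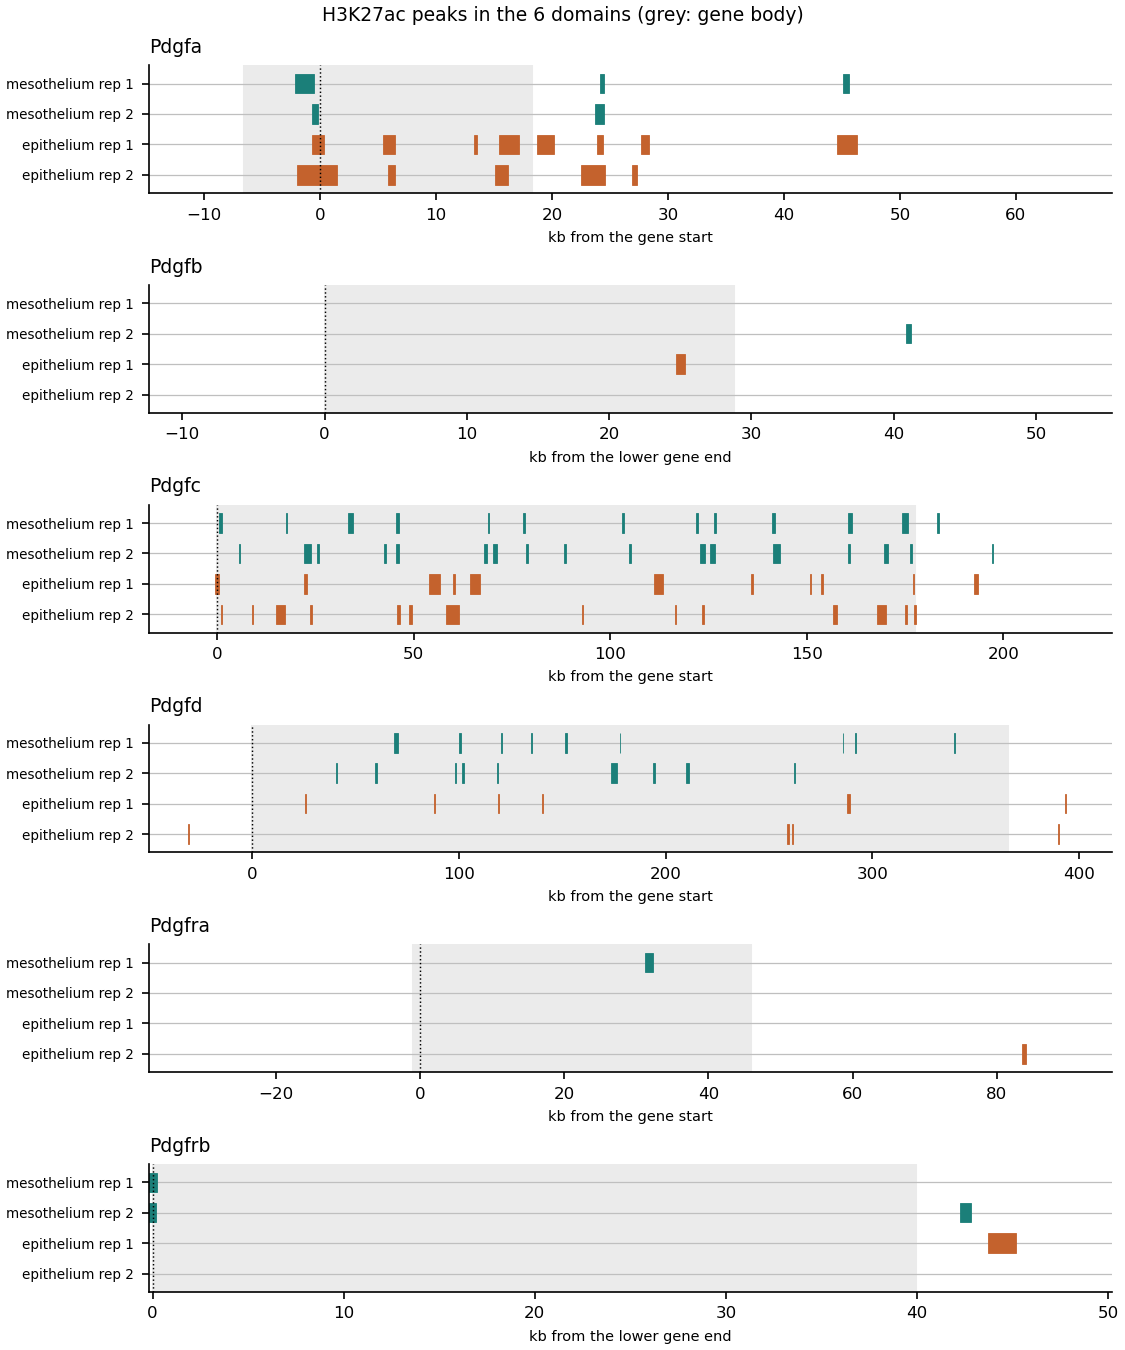
H3K27ac peaks in the 6 domains by library, mesothelium above epithelium, against distance in kb from the gene start, or from the lower gene end for Pdgfb and Pdgfrb; positive is downstream where a start is known, for Pdgfa counted from its downstream start, grey marks the gene body and the dotted line is at 0. Peaks around the Pdgfa starts overlap in all 4 libraries, those in Pdgfd do not overlap between libraries, and Pdgfra has 1 peak in each of 2 libraries.

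Pdgfc, the gene of the C chain, another PDGFRA ligand, carried the most acetylated sequence of the 6 genes and did not separate the cell types. It lies on the plus strand of chromosome 3 (81036416 to 81214040), in a domain of 245.0 kb that is the second longest of the 6. The domain held 8.61 and 13.7 kb under peaks in mesothelium, and 12.6 and 14.0 kb in epithelium. The cell types overlapped, with mesothelium replicate 2 between the epithelium libraries and replicate 1 lowest. The means were 11.2 ± 3.59 kb for mesothelium, against 13.3 ± 0.950 kb for epithelium (SD, n = 2 each), and the log2 difference was −0.22 (SE 0.39, 95% interval −1.04 to 0.60, limma adjusted p = 0.835). The interval leaves room for a longer domain in either cell type. Without mesothelium replicate 1 the difference was 0.05 (limma adjusted p = 0.964), and with peaks limited to a −log10 q of 2 or more it was 1.90 (limma adjusted p = 0.423), against a median over all domains of 0.30 at that threshold; the adjusted p ran from 0.423 to 0.964 over 19 alternatives.

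Most Pdgfc peaks lay at different places in different libraries. The domain held 42 regions, of which 31 were found in 1 library, 3 were mesothelium-only, 2 were epithelium-only and none was found in all 4. Those of 1 library made up 73.8%, against 80.8% of all regions. The mesothelium-only regions made up 7.14%, against 2.6%, and the epithelium-only ones 4.76%, against 3.31%. The 3 mesothelium-only regions lay together in the last part of the gene, 125.5, 141.2 and 160.4 kb from the start (81161885 to 81163357, 81177615 to 81179730 and 81196836 to 81197829). They were stronger in mesothelium replicate 2, where the peaks had a −log10 q of 2.5, 3.58 and 3.6, than in replicate 1, where it was 1.54, 1.69 and 1.70. The epithelium-only regions lay 58.3 and 177.0 kb from the start. At the start, a peak within 1 kb was present in mesothelium replicate 1, 0.577 kb downstream, and in both epithelium libraries, across the start in replicate 1 and 0.959 kb downstream in replicate 2. In mesothelium replicate 2 the nearest peak was 5.48 kb away.

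The Pdgfc promoter window, chr3:81036166-81036465, plus strand, is shown as the other member promoter with a peak at its start, and lies wholly under the peak of epithelium replicate 1. Capitals mark GGAATG on either strand, the letters of a TEAD motif, found at 2 places here and in 13.6% of all windows. The other motifs searched had no match here.
Pdgfc start: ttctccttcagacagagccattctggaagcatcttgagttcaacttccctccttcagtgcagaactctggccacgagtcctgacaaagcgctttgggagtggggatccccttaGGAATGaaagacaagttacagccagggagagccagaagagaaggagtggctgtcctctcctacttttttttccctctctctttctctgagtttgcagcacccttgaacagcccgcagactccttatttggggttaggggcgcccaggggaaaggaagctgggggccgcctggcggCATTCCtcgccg

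Pdgfd, the gene of the D chain, which binds PDGFRB, had more length under peaks in both mesothelium libraries, a difference that did not pass the test. It lies on the plus strand of chromosome 9 (6168363 to 6534284), in the longest domain of the 6 at 465.9 kb, and its body contains the small gene Ddi1. It carried 5.72 and 9.36 kb under peaks in mesothelium, and 3.63 and 2.306 kb in epithelium. Each mesothelium library exceeded both epithelium libraries, with means of 7.54 ± 2.57 kb for mesothelium, against 2.97 ± 0.935 kb for epithelium (SD, n = 2 each). The log2 difference was 1.26 (SE 0.55, 95% interval 0.13 to 2.40, limma adjusted p = 0.221). It was positive under each of 19 alternatives, from 0.99 to 2.44, and passed under none, with limma adjusted p from 0.154 to 0.544.

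The Pdgfd peaks were scattered through a long gene. Its 28 peaks formed 28 regions, each found in 1 library, as were 80.8% of all regions. No gene start peak was present in any library, as for 53.3% of the coding genes with a listed start. The strongest peak, in mesothelium replicate 2 (6269821 to 6270964, −log10 q 4.48), lay 101.3 kb from the start, and its nearest neighbour in mesothelium replicate 1 was at 6268575 to 6269332. With peaks within 500 bp joined, this pair became a mesothelium-only region of 2390 bp. Per length, the domain was 1.23 and 2.01% covered in mesothelium and 0.779 and 0.495% in epithelium. Over all coding domains together the share was 1.89 and 2.11% in mesothelium, against 2.26 and 2.12% in epithelium. The Pdgfd domain stood near this pooled share in mesothelium replicate 2 and below it in the other 3 libraries. Taken domain by domain, its mean percentage was above that of 62.2% of coding domains in mesothelium and 47.0% in epithelium.

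Pdgfb, the gene of the B chain, which binds both receptors, carried few kilobases under peaks. Its domain on chromosome 15 (gene 79995865 to 80024614) held no peak in mesothelium replicate 1 and 0.364 kb in replicate 2, and 0.654 kb in epithelium replicate 1 and no peak in replicate 2. The cell types overlapped, and the gene was below the filter for a test. The epithelium peak (80020543 to 80021196) lay inside the gene body, nearer to the upper gene end than to the lower. Its signed distance from the upper end was −3.418 kb, where negative is inside the gene. From the lower end it was 24.7 kb away. No strand was listed for Pdgfb, so neither end could be named as the start. This peak was the second strongest of the 109 peaks in the 6 domains by −log10 q, at 4.53. It was absent from the list of the other epithelium library. Neither end of the Pdgfb gene had a peak within 1 kb in any library, as at 50.5% of coding genes.

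Pdgfra, the receptor of lung mesenchyme, held 2 peaks in all, neither at its start. It lies on the plus strand of chromosome 5 (75151322 to 75198206), with its listed start at 75152251 and a domain of 133.6 kb. Mesothelium replicate 1 had 1.09 kb and replicate 2 had no peak, and epithelium replicate 1 had no peak and replicate 2 had 0.555 kb. The cell types overlapped and the gene was not tested. The mesothelium peak lay in the gene body 31.2 kb from the start (−log10 q 2.2), and the epithelium peak lay beyond the gene, 83.5 kb from the start (−log10 q 2.49). The neighbouring genes also carried few kilobases. Gsx2, a homeobox gene on the lower side, had no peak in any library. Kit, a receptor of the same class on the upper side, had no peak and 0.561 kb in mesothelium, against 0.643 and 1.5 kb in epithelium (log2 difference −0.99, SE 0.86, limma adjusted p = 0.587).

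Pdgfrb, the receptor of pericytes, had a small peak at its lower gene end in both mesothelium libraries and in neither epithelium library. The gene lies on chromosome 18 (61045127 to 61085067), and its domain of 50.4 kb is cut short by Gm52351, which ends 0.414 kb below it, so that peaks at this end cannot be assigned to 1 of the 2 genes. The region spanned 61044889 to 61045372 and was covered over 484 bp in mesothelium replicate 1 (−log10 q 1.44) and 362 bp in replicate 2 (−log10 q 2.22). A mesothelium-only peak within 1 kb of either gene end was found at 3.0% of all coding genes, and Pdgfrb was the single member with one. Over the domain, Pdgfrb carried 0.452 and 0.937 kb in mesothelium, and 1.48 kb and no peak in epithelium. The cell types overlapped, and the epithelium length came from 1 peak of 1483 bp beyond the upper end. The log2 difference was 0.29 (SE 0.88, 95% interval −1.55 to 2.13, limma adjusted p = 0.908), while the difference of the means in kb had the other sign, −0.047 kb. Without epithelium replicate 2 the log2 difference was −0.70 (limma adjusted p = 0.819), with adjusted p from 0.802 to 0.985 over 14 alternatives. Csf1r, the next gene above and the receptor for a macrophage growth factor, had 0.359 kb in mesothelium replicate 1 and no peak in the other 3 libraries.

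Summed over each side, the ligand domains were covered more densely than the receptor domains in every library, which did not hold gene by gene or for stronger peaks alone. The 4 ligand domains held 16.9 and 24.8 kb under peaks in mesothelium, and 25.4 and 23.9 kb in epithelium. The 2 receptor domains held 1.54 and 0.937 kb in mesothelium, against 1.48 and 0.555 kb in epithelium. The receptors thus made up 8.38 and 3.64% of the covered length of the family in mesothelium, and 5.51 and 2.27% in epithelium, although they are 17.6% of its domain length. The mean share was 6.01 ± 3.35% in mesothelium and 3.89 ± 2.29% in epithelium (SD, n = 2 each), and the libraries of the cell types overlapped. With peaks limited to a −log10 q of 2 or more the receptor share was 29.0 and 2.17% in mesothelium (mean 15.6%), against 0 and 18.5% in epithelium (mean 9.23%). At that limit the receptor domains were covered more densely than the ligand domains in mesothelium replicate 1 and epithelium replicate 2, each through a single Pdgfra peak.

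**Figure D3:**
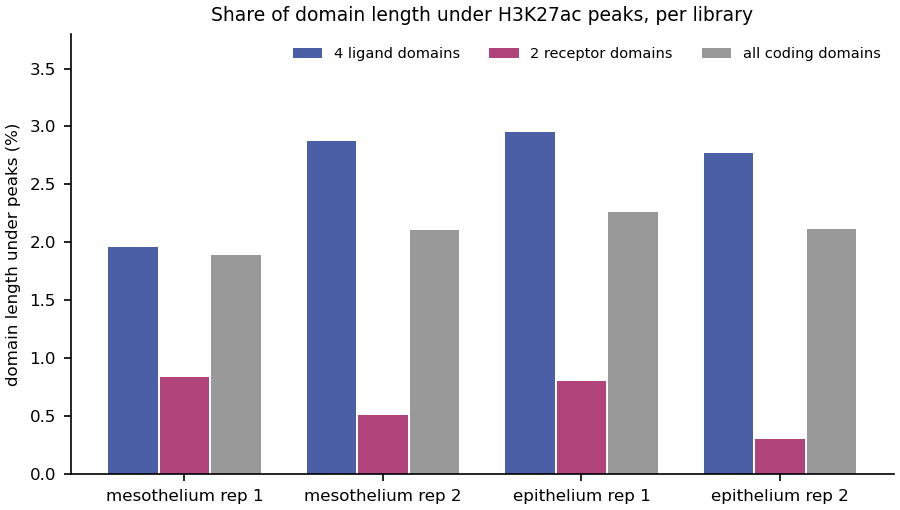
Percentage of domain length under H3K27ac peaks in each library, for the 4 ligand domains, the 2 receptor domains and all coding domains together; each bar is 1 library and has no error bar. The receptor bars lie between 0.302 and 0.838% and below the ligand bars, at 1.96 to 2.95%, in each of the 4 libraries.

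Per length, the ligand domains were 1.96 and 2.88% covered in mesothelium, and 2.95 and 2.77% in epithelium. The receptor domains were 0.838 and 0.509% covered in mesothelium, and 0.806 and 0.302% in epithelium, below the share of all coding domains together in each library. The median coding domain was 0.223 and 0.478% covered in mesothelium, and 0.493 and 0.472% in epithelium. The receptor domains were above this median in every library except epithelium replicate 2. Single genes spread widely. Pdgfa was 3.05 and 1.65% covered in mesothelium and 10.2 and 9.12% in epithelium, and its mean in epithelium was above that of 94.0% of coding domains. Pdgfc was 3.51 and 5.59% covered in mesothelium and 5.16 and 5.71% in epithelium. Pdgfrb was 0.897 and 1.86% covered in mesothelium, against 2.94 and 0% in epithelium, and in epithelium replicate 1 it stood above Pdgfd at 0.779% and Pdgfb at 0.966%. Pdgfb was 0 and 0.538% covered in mesothelium, against 0.966 and 0% in epithelium. The make-up of the ligand length is given as a description, with no test. Pdgfa held 15.0 and 5.53% of it in mesothelium and 33.4 and 31.7% in epithelium, while Pdgfd held 33.9 and 37.8% in mesothelium and 14.3 and 9.66% in epithelium. Pdgfc held between 49.7 and 58.6% in each of the 4 libraries.

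Few of the regions in the 6 domains recurred. Of 86 regions, 69 (80.2%) were found in 1 library, against 80.8% of all 132212 regions. There were 4 mesothelium-only regions (4.65%, against 2.6% of all regions), 4 epithelium-only regions (4.65%, against 3.31%) and 2 regions in all 4 libraries (2.33%, against 3.24%). These counts are too small to set the family apart from the rest. The mesothelium-only regions lay at Pdgfc and Pdgfrb, the epithelium-only ones at Pdgfa and Pdgfc, and those in all libraries at Pdgfa.

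The peaks of the family had a median −log10 q of 1.70, against 1.71 over all peaks of the 4 lists. Of 109 peaks, 26 had a −log10 q of at least 2 and 3 had one of at least 4. By library, 22.2 and 48.4% of the members' peaks in mesothelium and 7.41 and 12.5% in epithelium reached 2, against 31.5 and 53.1% of all peaks in mesothelium and 24.2 and 24.1% in epithelium. At Pdgfc this count was 1 of 13 and 9 of 17 in mesothelium, and 1 of 11 and none of 14 in epithelium. Mesothelium replicate 2 also had the largest share of such peaks over the whole genome, and the part of that in the Pdgfc values was not tested.

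**Figure D4:**
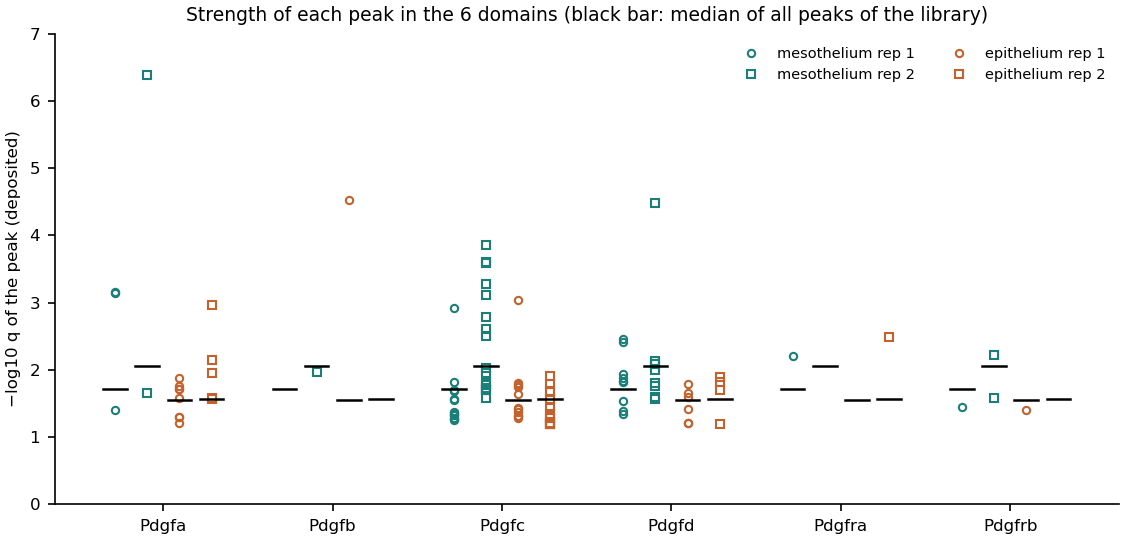
Deposited −log10 q of every peak in the 6 domains, by gene and library, with mesothelium left of epithelium; each point is a peak and each black bar the median of all peaks of that library. Most points lie near the library medians of 1.56 to 2.05, and 3 lie above 4, at Pdgfa, Pdgfb and Pdgfd.

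Few other genes of the pathway passed the test between the cell types. Over all tested domains, 1.41% were longer in mesothelium and 2.53% longer in epithelium, and the median log2 difference was 0.03. Of 8 tested genes for processing and binding of ligands, 1 was longer in epithelium, none in mesothelium, and the median log2 difference was −0.64. It was Nrp1, a co-receptor for several growth factors, with 10.7 and 8.91 kb in mesothelium, against 31.0 and 30.2 kb in epithelium (log2 difference −1.54, SE 0.34, limma adjusted p = 0.0105). Leaving out either epithelium library ended this call (limma adjusted p = 0.0601 without replicate 1 and 0.0845 without replicate 2; 0.000108 to 0.224 over 19 alternatives). Of the proteases that activate PDGF-C and PDGF-D, Plat had no peak in any library and Plau had 0.876 kb in mesothelium replicate 2 and no peak elsewhere. St14, another such protease, had 0.445 kb and no peak in mesothelium, against 1.32 and 1.12 kb in epithelium (log2 difference −1.26, SE 0.85, limma adjusted p = 0.464). Sparc, whose product binds PDGF, carried 7.23 and 9.50 kb in mesothelium, against 10.5 and 6.15 kb in epithelium.

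Of 24 tested effector genes of the receptors, none passed in either direction (limma, with 9 at an unadjusted p under 0.05), and the median log2 difference was 0.24. The adaptor gene Gab1 carried 24.7 and 25.6 kb in mesothelium, against 24.0 and 33.4 kb in epithelium. Grb10, another adaptor gene, carried 24.0 and 14.1 kb in mesothelium, against 35.5 and 28.9 kb in epithelium. Of 9 tested genes that attenuate the receptors, 1 was longer in mesothelium and none in epithelium, with a median of 0.08. It was Socs3, an inhibitor of cytokine signalling, with 3.15 and 4.99 kb in mesothelium and no peak and 0.397 kb in epithelium (log2 difference 2.80, SE 0.74, limma adjusted p = 0.0335). The Socs3 call was lost under 12 of 19 alternatives, among them leaving out either mesothelium library or epithelium replicate 1 (limma adjusted p = 0.0646, 0.221 and 0.173), and with flanks not cut the difference was 0.10 (limma adjusted p from 0.0151 to 0.949 over all). None of 9 tested response genes, such as Fos, Myc and Has2, passed (limma, with 1 at an unadjusted p under 0.05, Ccn2), and their median was 0.43.

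Among the receptor and ligand genes nearest to the family, those of receptor tyrosine kinase classes III and V and the VEGF ligands, 1 of 5 tested was longer in mesothelium, none was longer in epithelium and the median log2 difference was −0.35. It was Kdr, a VEGF receptor, with 2.80 and 2.81 kb in mesothelium and no peak in epithelium (log2 difference 2.79, SE 0.79, limma adjusted p = 0.0494), a call lost when any 1 library was left out (limma adjusted p = 0.127 to 0.258; 0.0297 to 0.457 over 18 alternatives). Vegfa, which like Pdgfa encodes a ligand, carried 1.13 and 0.514 kb in mesothelium, against 2.69 and 3.84 kb in epithelium (log2 difference −1.47, SE 0.70, limma adjusted p = 0.275).

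**Figure D5:**
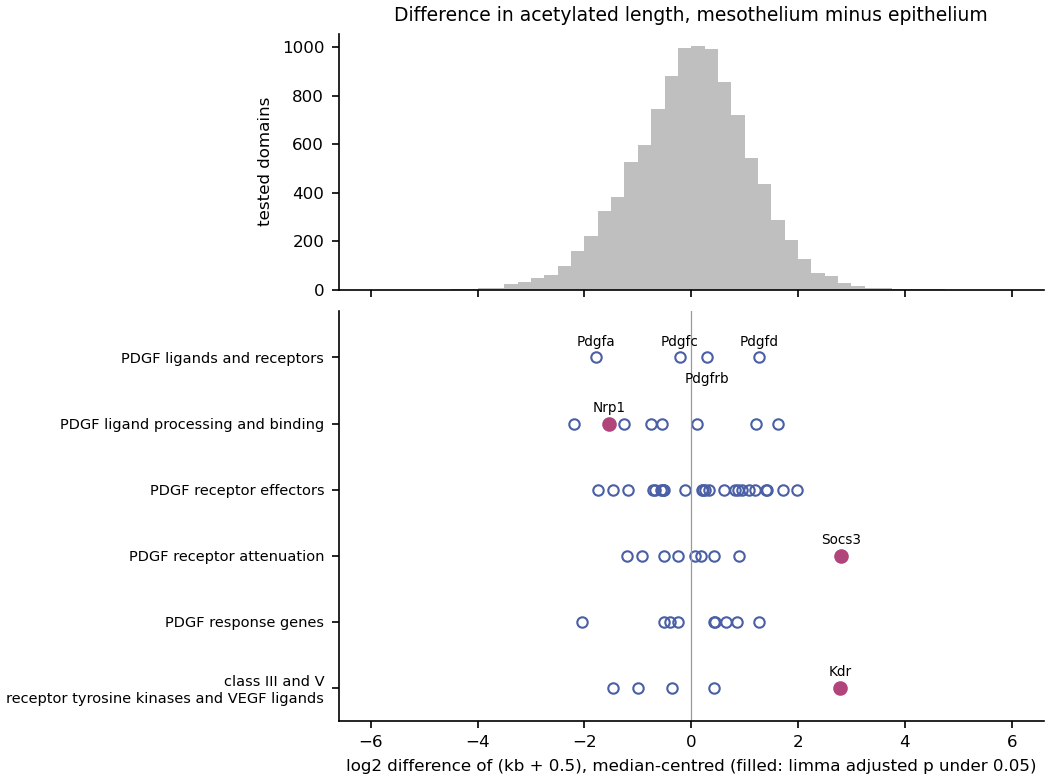
Log2 difference in acetylated length, mesothelium minus epithelium, for all 10486 tested domains as a histogram of counts above, and for the tested PDGF genes and 5 pathway lists below, where each circle is a gene and a filled circle passed at a limma adjusted p under 0.05. Filled circles are Nrp1 in the negative direction and Socs3 and Kdr in the positive direction, and none of the PDGF genes is filled.

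Markers of the cells that PDGF signals to were unevenly covered. Of 10 tested fibroblast and myofibroblast markers, 2 were longer in mesothelium, the collagen gene Col3a1 and the T-box gene Tbx5, and none in epithelium. The call of Col3a1 was lost in the gene body alone (limma adjusted p = 0.0716) and with 5 kb flanks (limma adjusted p = 0.0574; 1.08e-06 to 0.173 over 19 alternatives). The 15 listed summed to 33.7 and 50.9 kb in mesothelium, against 12.1 and 10.03 kb in epithelium, and Gli1 had no peak in any library. Of 5 tested pericyte and smooth muscle markers none passed (limma, with 1 at an unadjusted p under 0.05, Abcc9), the 12 listed summed to 7.14 and 4.14 kb in mesothelium, against 4.65 and 5.47 kb in epithelium, and Des and Kcnj8 had no peak in any library. Of 6 tested endothelial markers, Tek and Kdr were longer in mesothelium, a call made at 1.41% of all tested domains. The log2 difference was positive for 4 of the 6 and negative for Erg (−1.70) and Prox1 (−0.91). Neither Erg nor Prox1 passed (limma adjusted p = 0.355 and 0.556). Erg had no peak in either mesothelium library, while the epithelium libraries held 0.317 and 3.03 kb. The sort removed CD31-positive cells. The call of Tek was lost without mesothelium replicate 2, where its log2 difference was 3.10. For Tek the limma adjusted p ran from 0.00285 to 0.659 over 20 alternatives. Sox17 and Lyve1 had no peak in any library. The 12 listed endothelial genes summed to 16.8 and 11.6 kb in mesothelium, against 6.96 and 9.68 kb in epithelium. The 10 immune markers summed to at most 1.74 kb in any library, and none was tested. The part of these cells in the PDGF values was not tested.

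The domains most like those of the tested members, by Euclidean distance over the 4 libraries of centred log2(kb + 0.5), were Fads3 and Ttll10 for Pdgfa (0.207 and 0.233) and Cbfa2t2 and Ect2 for Pdgfc (0.145 and 0.259). For Pdgfd they were Nkain2 and Cept1 (0.331 and 0.391), and for Pdgfrb they were Rbm4 and Mrpl15 (0.131 and 0.181). Each is a likeness of 4 values. Of the genes next to the ligands, Prkar1b, above Pdgfa, carried 0.650 and 0.394 kb in mesothelium, against 2.32 and 1.75 kb in epithelium (log2 difference −1.25, SE 0.74, limma adjusted p = 0.396), in the same direction as Pdgfa. Casp12, below Pdgfd, carried 0.942 and 4.27 kb in mesothelium and no peak in epithelium (log2 difference 2.45, SE 0.85, limma adjusted p = 0.118). Gm5294, Cbx7, Rpl3, Gm29808, Ctso and Dync2h1, the remaining neighbours of the ligands, were not called either, and Cbx7 was not tested.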

How the data were processed

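Cells sorted from pooled E16.5 mouse lungs were profiled by H3K27ac CUT&RUN with paired-end sequencing, per the labels' protocols. Per the submitters' processing notes, which give no role or order, the tools included MACS2 2.2.9.1, Bowtie2 2.5.3, bedtools 2.31.1 and cutadapt 4.8, and the build was mm10. The caller's control and threshold: not given in the sources used here. Every library had its own deposited list of broad peaks. The deposited fold enrichment is a ratio to the caller's local background. Deposited −log10 p and q values were used to rank or filter peaks within a list, and the deposited score, the whole part of 10 times −log10 q, was not used.

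Peaks outside chromosomes 1 to 19, X and Y were left out. Genes came from RefSeq (GRCm38.p6), and promoter sequences, strand and starts from a RefSeq table of that build, which holds 4 of the 6 members; for Pdgfb and Pdgfrb gene ends were used. Covered length was tested with limma 3.58.1 (R 4.3.3) with a trend, after adding 0.5 kb, taking log2 and centring each library on its median over 6918 domains that had peaks in every library. Domains under a mean of 0.5 kb were left out. Regions were merged where peaks overlapped by at least 1 bp. The scripts were tested on simulated data (Python 3.11.15, pandas 2.3.3, numpy 2.4.6). With 2 libraries against 2 the smallest exact p is 0.333, so regions and shares were not tested.

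Replicate numbers come from the titles, and nothing says that they mark shared pools. Named genes were the members, their neighbours, list genes past the test (up to 4 per list and direction, and up to 2 per marker list) and the 2 most like domains per tested member; other genes of the lists were named as examples after their values were seen. Of 66 pathway genes 65 matched, and all 76 markers did. The members and lists were chosen with earlier results of these data known.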

Additional observations from a re-analysis of the deposited data

How the results depend on the processing

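For the 4 tested members, the direction and the side of the threshold held under all alternatives that could be fitted, except those given here. With −log10 q limited to 4 or more, none of the 4 had a fit, as their means were under the filter. Pdgfrb also had no fit with −log10 q limited to 2 or more, with peaks of at least 1 kb or in the gene body alone. Nor did Pdgfrb have one where a mean of at least 1 kb was required. Pdgfa was called with uncut flanks (log2 difference −2.01) and without mesothelium replicate 1 (−2.18), and it ranged from −2.18 to −1.33 when 1 library was left out. Pdgfc changed sign with −log10 q limited to 2 or more (1.90) and without mesothelium replicate 1 (0.0495), and its lowest with 1 library left out was −0.44. Pdgfrb ranged from −0.70 (without epithelium replicate 2, a change of sign) to 0.54, with no value without epithelium replicate 1, where its mean was under the filter. Pdgfd ranged from 0.99 to 1.54. The cause was not tested.

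The number of domains longer in mesothelium, 148, became 0 with peaks limited to a −log10 q of 2 or more. It was also 0 with a −log10 q of 4 or more and with widths of at least 1 kb. In that order, 960, 23 and 1653 domains had an unadjusted p under 0.05 (limma), counted over both directions. The number longer in mesothelium was 88 when scaled to total length, 94 after quantile normalization, 89 unscaled and 1 with 0.1 kb added. The number longer in epithelium, 265, became 0 with either −log10 q threshold, peaks of at least 1 kb or 0.1 kb added, 122 when scaled to total length and 125 after quantile normalization, and ranged from 80 (without epithelium replicate 2) to 471 (without mesothelium replicate 1), with 117 without epithelium replicate 1.

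In the 6 domains, the 4 mesothelium-only, 4 epithelium-only and 2 shared regions became 0, 0 and 0 under either −log10 q limit, and 2, 2 and 0 where a peak had to cover at least 50% of the region. Equal numbers of peaks left 1 shared region, and joining peaks within 500 bp gave 7 mesothelium-only regions. Leaving out 1 library loosens each class by construction, and there were 4 to 25 mesothelium-only, 4 to 23 epithelium-only and 2 to 3 shared regions. The receptor share was 15.6% in mesothelium and 9.23% in epithelium with −log10 q limited to 2 or more, 3.64 to 8.38% in mesothelium and 2.27 to 5.51% in epithelium with 1 library left out. The 1 member with a start peak in all libraries became 0 with −log10 q limited to 2 or more, and 1 to 2 with 1 library left out, where Pdgfc was the second without mesothelium replicate 2. Flanks of 200 kb, and the alternatives for start peaks, were chosen after seeing the data.

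With the replicate numbers as a block, the calls were 210 (mesothelium longer) and 348 (epithelium longer), and no PDGF gene was called (Pdgfa, log2 difference −1.78). Deviations of same-numbered libraries correlated at 0.03 over 10486 domains, so the numbers are not taken to pair the libraries. A fit without 1 library leaves an arm with 1 library, assumed to vary like the others. The lists give no depth, which limits every absent peak. The marker calls of Gpm6a, Wt1, Cldn18, Nkx2-1, Col3a1, Tbx5 and Tek were also lost with −log10 q limited to 2 or more, with peaks of at least 1 kb and with 0.1 kb added, and those of Col3a1 and Tek in the gene body with no flank or 5 kb flanks.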
